A study of Mus musculus with 1 sample.

Results

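The genes of MHC class II presentation were followed in the pancreas of mice 2 weeks old through 9 genes, taken by their symbols from the 32285 genes listed in the count table. They comprise Cd74, which encodes the invariant chain, and H2-Aa, H2-Ab1 and H2-Eb1, which encode classical class II chains. H2-DMa and H2-DMb1 encode the chains of DM, H2-Oa and H2-Ob the chains of DO, and Ciita the class II transactivator. Each of the 9 symbols was listed once and each had UMIs (unique molecular identifiers, 1 for each captured RNA molecule).

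Class II molecules pair an alpha and a beta chain and show peptides made in endosomes to CD4 T cells. The invariant chain fills the groove of a new class II molecule and guides it to endosomes, where proteases such as cathepsin S cut it down. DM then exchanges the fragment that remains for peptides, and DO binds DM and holds it back, mainly in B cells. CIITA, recruited to the X and Y boxes of the promoters by RFX and NF-Y proteins, switches the genes on together. Dendritic cells, B cells and macrophages are known for standing expression, and interferon gamma can induce the genes in other cells.

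The cells came from 1 droplet library of Scap f/f mice, the control genotype of the study, in which the Scap alleles are flanked by recombination sites and which is titled wildtype. Pancreata of 5 to 6 mice, as many male as female, were pooled, so animals could not be told apart. The Scap Δpanc library, in which a Pdx1-driven Cre deletes Scap in the pancreatic epithelium, was not analysed here. With 1 library there is no replicate, and the intervals given are exact 95% intervals that cover counting error only.

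Of 11789 barcodes, 10947 were retained, with 49202966 UMIs and a median of 2650 UMIs a cell. The 9 genes together held 19197 of these UMIs (0.0390%). Cells were assigned to classes by 3 or more markers that are not among the 9 genes, and cells that passed several gates were left out. The 7 classes described held 7888 cells and 59.3% of the UMIs of the 9 genes. All listed markers of each of these 7 classes were detected in it. The leading genes by fold over the other classes were Igkc, Bank1 and Iglc2 in B cells, Retnla, Lyz2 and Ccl24 in macrophages, and Ccl5, Epsti1 and Il12b in dendritic cells. They were Ms4a4b, Gm2682 and Skap1 in T cells, Ptprb, Flt1 and Cdh5 in endothelial cells, Upk3b, Slpi and Lgals7 in mesothelial cells, and H19, Dpt and Postn in fibroblasts.

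RefSeq promoter windows (GRCm38.p6, 250 bases before to 50 after a start) matched 6 of the 9 genes in 7 windows, with 2 starts for H2-DMa. Stretches of these windows are shown because X and Y boxes are where the partners of CIITA bind. Capitals mark the letters GATTGG, the core of a Y box, and, where they begin 20 to 40 bases before them, the letters AACNNATG, taken as an X box core. Both were searched on both strands, do not overlap each other, and were chosen after the windows had been read.
H2-Aa (chr17:34287858-34287917, minus strand): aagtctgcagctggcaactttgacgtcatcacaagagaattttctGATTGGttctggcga
H2-Eb1 (chr17:34305762-34305821, plus strand): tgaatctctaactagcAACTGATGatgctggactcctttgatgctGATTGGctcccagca
H2-DMa, second start (chr17:34125274-34125333, plus strand): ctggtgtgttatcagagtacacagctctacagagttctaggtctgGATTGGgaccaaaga
H2-DMb1 (chr17:34153084-34153143, plus strand): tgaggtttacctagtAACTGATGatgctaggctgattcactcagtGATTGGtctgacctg
H2-Oa (chr17:34092290-34092349, plus strand): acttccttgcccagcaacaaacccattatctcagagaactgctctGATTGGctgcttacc
H2-Ob (chr17:34238802-34238861, plus strand): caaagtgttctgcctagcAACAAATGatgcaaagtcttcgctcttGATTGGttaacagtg
H2-DMb2, the neighbour of H2-DMb1 (chr17:34145113-34145172, plus strand): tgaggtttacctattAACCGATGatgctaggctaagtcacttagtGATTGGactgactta

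GATTGG stood in 6 of the 7 windows of the 9 genes, against 5292 of all 32851 promoter windows (16.1%). It began 44 to 62 bases before the start in H2-Oa, H2-Aa, H2-Ob, H2-Eb1 and H2-DMb1 and 199 bases before the second start in H2-DMa. AACNNATG stood in 2912 of all windows (8.86%). The pair of both, in this order and spacing, stood in 26 of all windows (0.0791%). Of these 26, 5 belonged to class II loci, namely H2-Eb1, H2-DMb1 and H2-Ob and the further loci H2-DMb2 and H2-Eb2, where the letters began 27 to 30 bases apart. The window of Icosl, a costimulatory ligand, also held the pair. A match of letters describes the sequence and measures no binding.

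The genes lie in the GRCm38 assembly (GENCODE M21) at 3 places. The H2 genes are on chromosome 17, from the start of H2-Oa at 34092340 to the end of H2-Eb1 at 34316674, all on the plus strand but H2-Aa. Ciita lies on the plus strand at chr16:10480059-10528418 and Cd74 on the plus strand at chr18:60803848-60812652. On the same strand, H2-DMa overlaps CR974462.3 and Cd74 holds Mir5107. On the other strand, H2-DMa overlaps Brd2, H2-Oa overlaps BC051537, H2-Eb1 overlaps Gm20513 and Ciita overlaps Dexi. Reads in the overlaps on the same strand, and reads that fit both H2-Eb1 and its near copy H2-Eb2, could be lost or counted for the other gene.

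The summed level of the 9 genes fell into 3 tiers across the classes. Levels are UMIs of a gene for each 1000000 UMIs of the class (CPM). B cells stood at 9145 CPM (8912 to 9382, 5847 UMIs in 352 cells), macrophages at 8874 (8254 to 9529, 758 UMIs in 20 cells) and dendritic cells at 5672 (5328 to 6032, 1012 UMIs in 43 cells). Mesothelial cells, the lining of the organ surface, came next at 555 CPM (529 to 582, 1690 UMIs in 528 cells), followed by T cells at 338 CPM (314 to 364, 728 UMIs in 883 cells). Fibroblasts stood at 62.3 CPM (58.8 to 65.9, 1226 UMIs in 5738 cells) and endothelial cells at 51.5 CPM (42.9 to 61.2, 127 UMIs in 324 cells). Among neighbours in this order, B cells and macrophages differed by less than the counting error, with a ratio of 1.03 (0.955 to 1.11). The fibroblast to endothelial ratio was 1.21 (1.01 to 1.46), but its direction turned with the cells used. It was 0.871 (0.655 to 1.18) among cells without a leukocyte marker, and the mean over cells was 63.9 CPM in fibroblasts and 81.5 in endothelial cells, so no order is drawn. The levels hold for gated cells only. Among cells that passed no gate, 32 with 2 or more different dendritic cell markers stood at 11002 CPM, above the gated dendritic cells. The place of dendritic cells below B cells and macrophages is therefore not read as a property of the cell type.

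Classes that should lack the genes gave the level of background. Red blood cells held 58.8 CPM (42.6 to 79.2, 43 UMIs in 409 cells), mural cells 46.5 CPM (26.0 to 76.6) and Schwann cells 9.96 CPM (0.252 to 55.5), with only 1 UMI. Of the 43 UMIs in red blood cells, 36 sat in 10 cells, and the other 399 stood at 9.91 CPM (3.99 to 20.4). Acinar cells held 148 CPM, and 66.6% of those UMIs sat in 10 of 878 cells. The fibroblast and endothelial levels lay within the interval of the level of all red blood cells, whereas those of mesothelial and T cells lay above it. Fewer expressing cells and fewer RNA molecules per cell cannot be told apart in these summed levels.

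**Figure D1:**
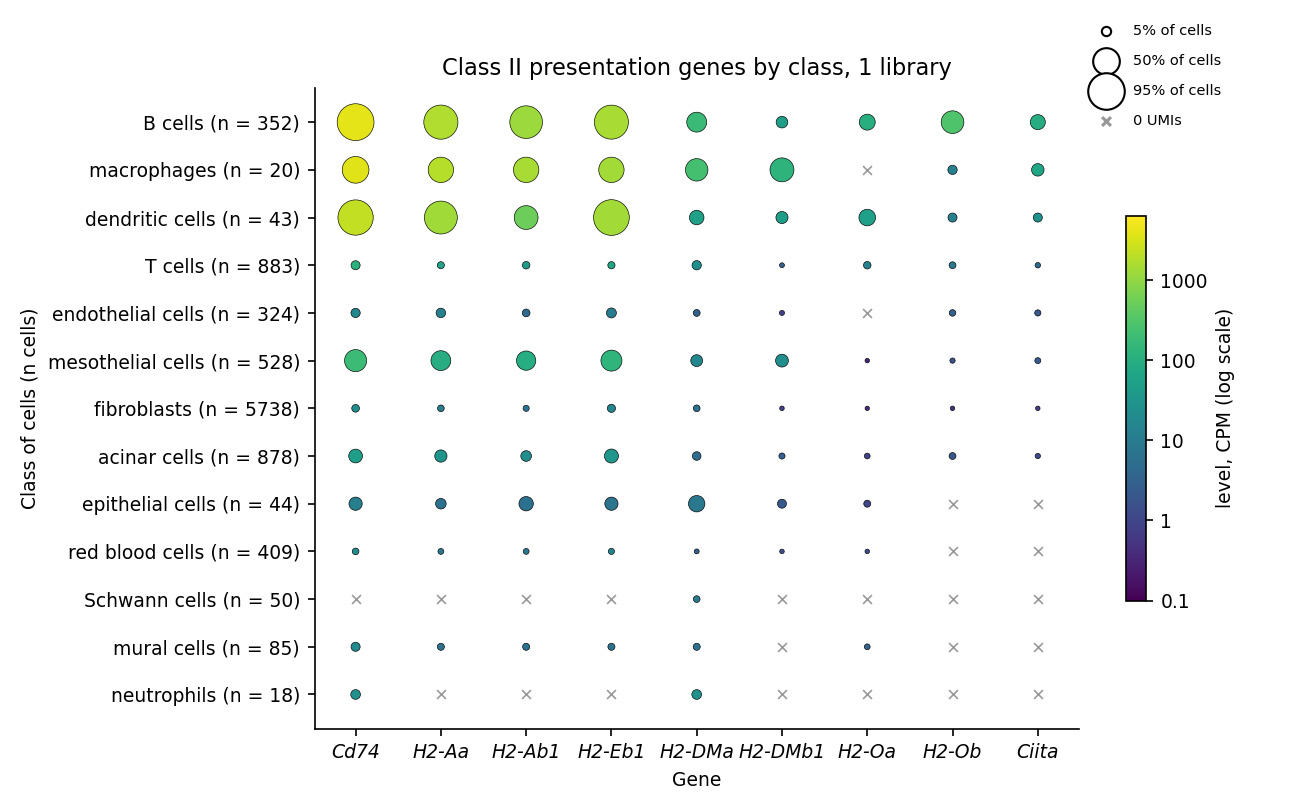
Level (colour, CPM on a log scale) and share of cells with a UMI (dot area) of each of the 9 genes (columns) in 13 classes of cells (rows, n cells each); a cross marks 0 UMIs. B cells, macrophages and dendritic cells carried the highest levels, mesothelial cells came next, and H2-Oa and H2-Ob stood highest in B cells.

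Shares of cells with a UMI of any of the 9 genes did not follow the order of the summed levels throughout. At full depth mesothelial cells stood above macrophages, and endothelial cells above T cells. The share was 97.4% in B cells (median depth 1401 UMIs), 90.7% in dendritic cells (3533 UMIs), 58.1% in mesothelial cells (4034 UMIs) and 50% in macrophages (3492 UMIs). It was 17.6% in endothelial cells (4672 UMIs), 14.0% in T cells (1750 UMIs), 9.88% in fibroblasts (2668 UMIs) and 4.16% in red blood cells (1449 UMIs). Because depths differ, each cell was also thinned at random to 800 UMIs, which left out no cell. B cells then showed 94.9% (92.0 to 96.9), dendritic cells 81.4% (66.6 to 91.6), macrophages 45% (23.1 to 68.5) and mesothelial cells 27.3% (23.5 to 31.3). The macrophage interval held the whole mesothelial interval. T cells showed 6.80% (5.23 to 8.66), endothelial cells 3.09% (1.49 to 5.60), fibroblasts 3.05% (2.62 to 3.53) and red blood cells 1.22% (0.398 to 2.83). The intervals of the endothelial and fibroblast shares overlapped that of red blood cells, although both shares were higher. Overlap of intervals is no test of equal shares, so no order against background is drawn from them. UMIs of 3 or more different genes of the 9 were found in 86.6% of B cells, 76.7% of dendritic cells, 45% of macrophages and 24.4% of mesothelial cells. The same held for 2.27% of T cells, 1.85% of endothelial cells, 0.732% of fibroblasts, 0.733% of red blood cells and none of 50 Schwann cells.

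**Figure D2:**
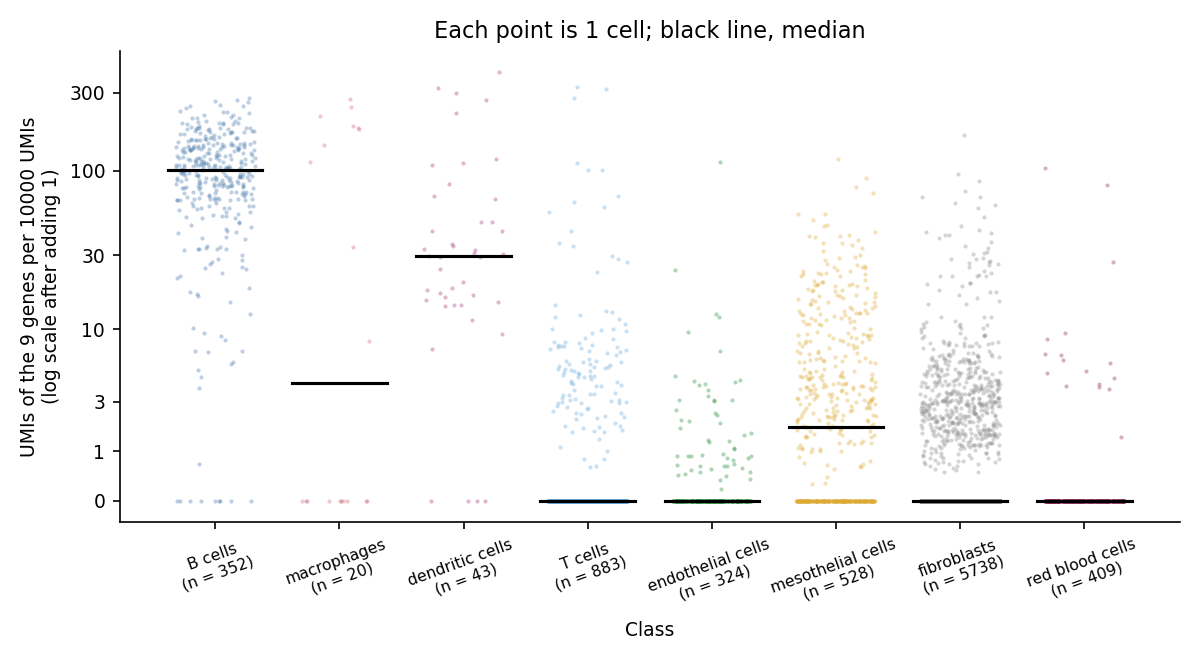
UMIs of the 9 genes for each 10000 UMIs in every cell (points, log scale after adding 1) of the 7 classes and of red blood cells, with the median as a black line. B cells formed 1 high band, macrophages split into cells at 0 and cells well above it, and mesothelial cells spread over a wide range below B cells.

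Cd74, the invariant chain, followed the order of the summed level in the 5 highest classes. It stood at 4070 CPM in B cells, 3746 in macrophages, 2287 in dendritic cells, 189 in mesothelial cells and 114 in T cells. It stood at 21.5 CPM in fibroblasts and 17.4 in endothelial cells, against 21.9 in red blood cells. A Cd74 UMI was seen in 96.3% of B cells, 88.4% of dendritic cells, 50% of macrophages and 33.9% of mesothelial cells, against 1.96% of red blood cells.

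The classical chain genes H2-Aa, H2-Ab1 and H2-Eb1 were also high in B cells, macrophages and dendritic cells and intermediate in mesothelial cells, with a balance that differed between classes. In B cells they held 41.2, 29.2 and 36.5 UMIs for every 100 Cd74 UMIs. H2-Aa, the alpha chain of the A molecule, stood at 1675 CPM in B cells, 1850 in macrophages, 1295 in dendritic cells and 98.2 in mesothelial cells. H2-Ab1, its beta chain, stood at 1187, 1475, 538 and 93.6 CPM in the same classes. H2-Eb1, the beta chain of the E molecule, stood at 1487, 1358, 1362 and 130 CPM. Neither H2-Ea, the gene of its alpha chain, nor H2-Ea-ps had a usable entry in the counts. The H2-Eb1 values thus describe RNA of the beta chain only and do not show that an E molecule was made. For every 100 Cd74 UMIs, H2-Ab1 reached 23.5 (18.6 to 29.5) in dendritic cells but 49.5 (42.8 to 57.1) in mesothelial cells. H2-Eb1 reached 36.5 (33.9 to 39.4) in B cells, 59.6 (50.6 to 70.0) in dendritic cells and 68.8 (60.3 to 78.3) in mesothelial cells.

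The DM genes were highest in macrophages and B cells, in a balance that differed between classes. Red blood cells held 2.74 CPM of H2-DMa (0.331 to 9.88) and 1.37 CPM of H2-DMb1 (0.0346 to 7.62). H2-DMa in fibroblasts and endothelial cells, and H2-DMb1 in T cells, fibroblasts and endothelial cells, were thus not separable from background. H2-DMa stood at 180 CPM in B cells, 234 in macrophages, 56.0 in dendritic cells, 21.8 in T cells, 17.1 in mesothelial cells, 6.04 in fibroblasts and 2.84 in endothelial cells. H2-DMb1 stood at 50 CPM in B cells, 129 in macrophages, 44.8 in dendritic cells and 22.7 in mesothelial cells, and below 4 CPM in T cells (3.25), fibroblasts (0.813) and endothelial cells (0.810). For every 100 Cd74 UMIs, B cells had 1.23 H2-DMb1 UMIs (0.839 to 1.74) and mesothelial cells 12.0 (9.19 to 15.4), so these intervals did not overlap. H2-DMa reached 4.42 (3.63 to 5.33) in B cells, 9.03 (6.66 to 12.0) in mesothelial cells, 19.2 (13.7 to 26.3) in T cells and 28.1 (22.8 to 34.6) in fibroblasts. In T cells 70.6% of the Cd74 UMIs sat in 10 cells, and in fibroblasts Cd74 stood at the red blood cell level, so ratios to Cd74 in these classes divide by few cells or by background, as they do in endothelial cells.

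H2-DMb2, the neighbouring second copy of the DM beta chain gene, showed the opposite preference. In B cells H2-DMb2 had 141 UMIs and H2-DMb1 32, so H2-DMb2 made up 81.5% (74.9 to 87.0) of both. In mesothelial cells it had 6 against 69 UMIs, or 8.0% (2.99 to 16.6), and in macrophages 4 against 11, or 26.7% (7.79 to 55.1). Dendritic cells had none against 8, with an interval from 0 to 36.9%. The B cell and mesothelial shares were apart by more than the counting error. The copies are nearly identical in sequence, so reads that fit both could be lost or split, and the size of each share is uncertain to that extent.

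Both DO genes stood highest in B cells, H2-Ob by a wide margin. H2-Ob, the beta chain, stood at 291 CPM in B cells (186 UMIs in 35.8% of cells), against 11.7 in macrophages (1 UMI), 11.2 in dendritic cells (2 UMIs), 8.83 in T cells (19 UMIs) and 1.64 in mesothelial cells (5 UMIs). H2-Oa, the alpha chain, stood at 108 CPM in B cells (69 UMIs), 50.4 in dendritic cells (9 UMIs), 12.1 in T cells (26 UMIs) and 0.328 in mesothelial cells (1 UMI). Macrophages and endothelial cells had no H2-Oa UMI. For every 100 Cd74 UMIs, H2-Ob reached 7.15 (6.13 to 8.30) in B cells, at most 1.78 in dendritic cells and 1.75 in macrophages by the upper bound, and 0.868 (0.281 to 2.04) in mesothelial cells. It reached 7.76 (4.59 to 12.4) in T cells and 16.3 (6.18 to 36.5, 7 against 43 UMIs) in endothelial cells, so B cells did not have the highest ratio. H2-Oa reached 2.65 (2.06 to 3.37) in B cells and 2.21 (1.00 to 4.23) in dendritic cells, which overlapped, 0.174 (0.00439 to 0.971) in mesothelial cells and 10.6 (6.80 to 15.9) in T cells, above B cells. The ratios of H2-Ob, H2-Oa and H2-DMb1 to Cd74 in mesothelial cells thus differed from those in B cells by more than the counting error. The H2-DMb1 ratio leaves out H2-DMb2, which held 81.5% of the UMIs of both copies in B cells and 8.0% in mesothelial cells. It does not describe the DM beta chain as a whole.

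**Figure D3:**
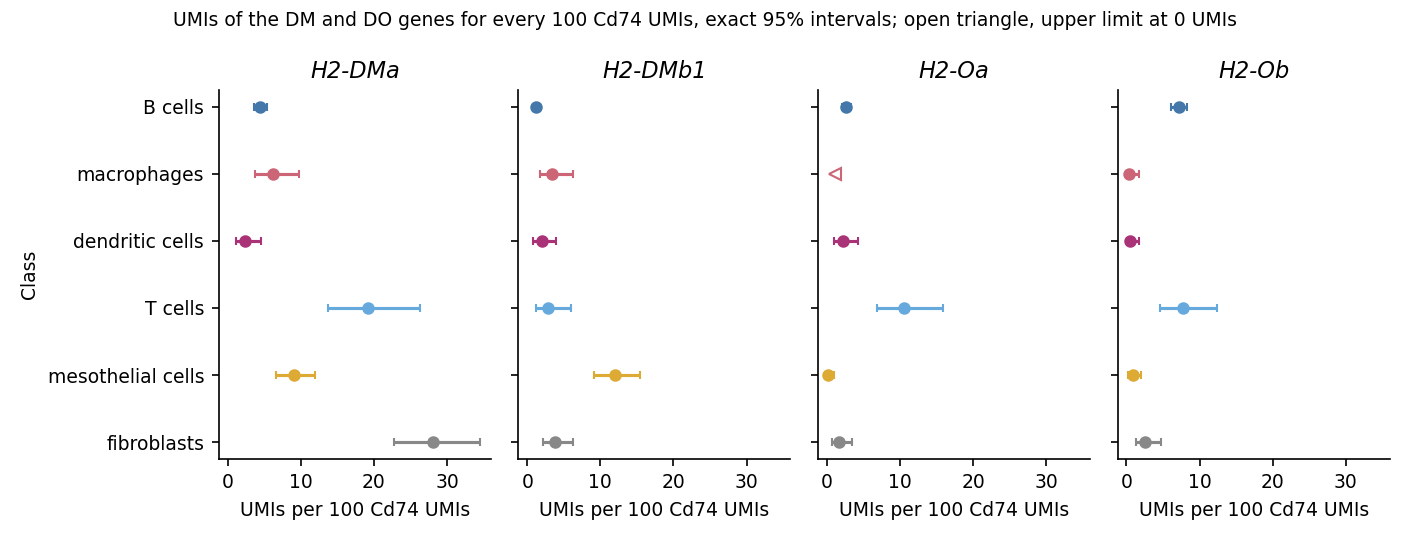
UMIs of H2-DMa, H2-DMb1, H2-Oa and H2-Ob for every 100 UMIs of Cd74 (x axis) in 6 classes (rows), with exact 95% intervals; an open triangle is the upper bound of the interval at 0 UMIs. H2-Ob was 7.15 in B cells and 7.76 in T cells and low in macrophages, dendritic and mesothelial cells, whereas H2-DMb1 was highest in mesothelial cells at 12.0.

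Ciita, the transactivator, was thinly counted. It stood at 97.0 CPM in B cells (62 UMIs in 15.1% of cells), 70.2 in macrophages (6 UMIs in 2 cells) and 28.0 in dendritic cells (5 UMIs in 2 cells). It stood at 4.65 CPM in T cells (10 UMIs), 2.30 in mesothelial cells (7 UMIs), 2.03 in endothelial cells (5 UMIs) and 0.711 in fibroblasts (14 UMIs). For every 100 Cd74 UMIs, Ciita reached 2.38 (1.82 to 3.06) in B cells and 1.22 (0.486 to 2.52) in mesothelial cells, and these intervals overlapped. Red blood cells had none, and 3 UMIs there would be 4.10 CPM. The mesothelial and endothelial levels were thus not separable from red blood cells at this depth. In acinar cells all 13 Ciita UMIs sat in the 10 highest cells, and the other 868 had an upper limit of 0.349 CPM. Without their own 10 highest cells, mesothelial cells stood above that limit, at 2.06 CPM (0.758 to 4.49). The endothelial interval without theirs began at 0.104, below it. All acinar cells stood at 1.21 CPM (0.645 to 2.07), which overlapped the mesothelial interval (0.924 to 4.74).

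Each fold between classes was read against all genes tested, where a gene was called at 4-fold or more after adding 10 CPM. Between B cells and T cells, 9 of 9 members were called higher in B cells, with a median fold of 16.0 (0.973 over all genes tested), against 1.99% of 10954 genes. Between macrophages and fibroblasts, 7 of 8 tested members were higher in macrophages, with a median fold of 34.7 (0.889 over all genes), against 3.94% of genes. H2-Ob was not called there and H2-Oa was too low to be tested. B cells exceeded macrophages at 2 of 9 members, H2-Oa and H2-Ob, against 6.82% of 7614 genes, and none was called lower, against 5.87%. The H2-Oa call rests on 69 UMIs in B cells and 0 in macrophages, so the gene was tested only through B cells. With 3 UMIs in macrophages the ratio would be 3.07, and its lower limit was 2.43, so the counts do not establish 4-fold. Of 7 tested members, none was called higher in dendritic cells than in macrophages, against 10.6% of genes, and none lower, against 8.58%. Mesothelial cells exceeded fibroblasts at 4 of 8 tested members, Cd74, H2-Aa, H2-Ab1 and H2-Eb1, with a median fold of 4.19 over the 8 (1.02 over all genes), against 1.8% of 15923 genes. Endothelial cells exceeded fibroblasts at none of 8, against 3.06%.

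Within B cells the 9 genes were lower in cells with signs of an early stage. Counts per B cell had a lower quartile of 10, a median of 15 and a maximum of 87 UMIs of the 9 genes, and 9 of 352 cells had none. Cells with Vpreb3, listed here as an early B cell marker, stood at 7026 CPM (114 cells). The other 238 B cells stood at 10342 CPM, a ratio of 0.679 (0.641 to 0.720). The 6 cells with Dntt or Rag1, genes of antigen receptor assembly, stood at 1298 CPM (691 to 2219), with 5 of the 6 at 0. Cells with Fcer2a or Cr2, surface receptors of mature B cells, stood at 10897 CPM (106 cells), 1.32 times the others (1.25 to 1.39). In this comparison H2-Ob was 1.92 times as high (1.43 to 2.59), Ciita 1.88 times (1.1 to 3.2) and H2-Oa 1.07 times (0.624 to 1.79). The 21 B cells with 2 or more UMIs of Mki67, Top2a, Birc5 and Cenpf, genes of dividing cells, stood at 3528 CPM against 10282 CPM in 319 B cells with none, a ratio of 0.343 (0.305 to 0.384). Median depth was 3333 against 1353 UMIs in that comparison.

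Macrophages split into cells with many UMIs of the 9 genes and cells with none. The 8 macrophages without a UMI of Lyve1, Timd4, Folr2 or Cd163, genes of long-lived resident macrophages, held from 18 to 215 UMIs of the 9 genes. Of the 12 with such a UMI, 10 had none, 1 had 1 and 1 had 44. The summed level was 19895 CPM (18461 to 21411) in the former and 908 CPM (662 to 1215) in the latter, a ratio of 21.9 (16.2 to 30.3), at median depths of 3634 and 3064 UMIs. None of the 4 cells with Timd4 had a UMI of the 9 genes, and all 6 cells with Ccr2, a chemokine receptor of cells that derive from monocytes, had 44 or more. Of those 6, 1 cell also carried Lyve1 and Folr2, and it was the one with 44. Cx3cr1, listed beside Ccr2 as a subset marker, did not follow this split. Of 7 cells with Cx3cr1, 3 held UMIs of the 9 genes, and the median was 0. The 8 cells carried 0 to 4 UMIs of the complement gene C1qa and the 12 carried 1 to 21. Monocyte markers as a list of 3, Ly6c2, Ccr2 and Plac8, stood at 781 CPM in the 8 cells and at 121 CPM in the 12. In the 12 all 6 UMIs of the list were Ccr2, in 1 cell. The list contains Ccr2, so it is not separate from the Ccr2 counts given above. Macrophage markers as a list of 9 stood at 2930 CPM in the 8 cells and at 11417 CPM in the 12. The 8 cells carried none of the 10 dendritic cell markers. The 20 cells come from 1 pool, so the split is between cells and not between animals.

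**Figure D4:**
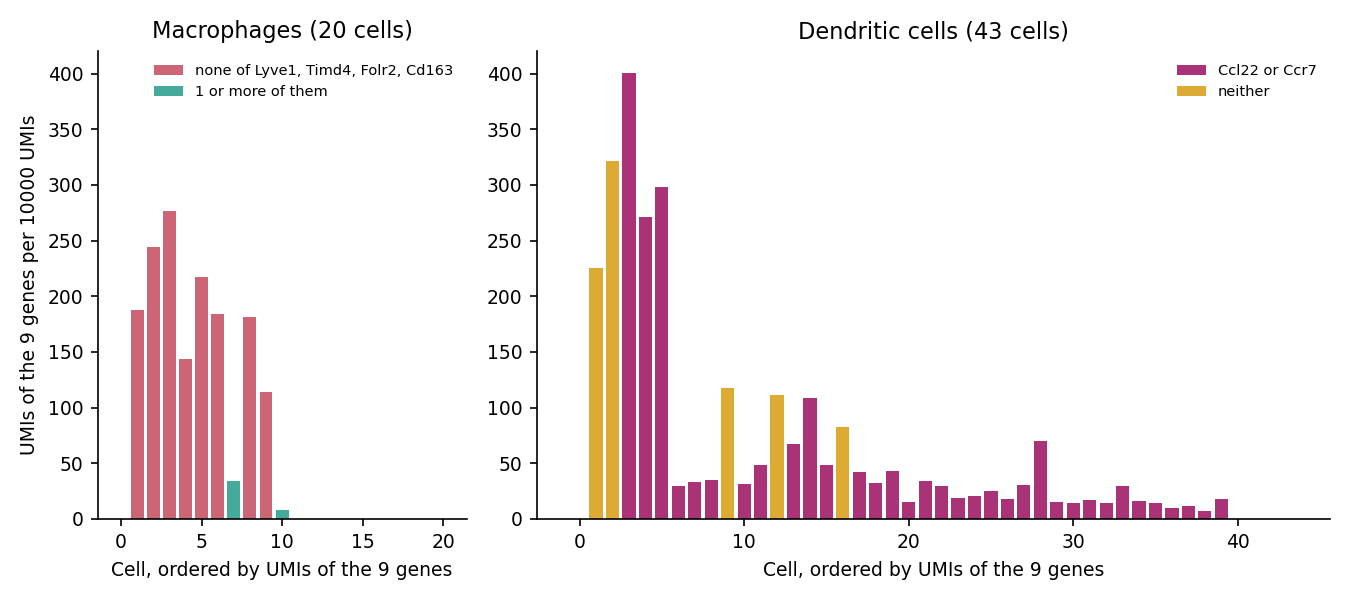
UMIs of the 9 genes for each 10000 UMIs in every macrophage (left, 20 cells) and dendritic cell (right, 43 cells), ordered by UMIs of the 9 genes; colours show cells with and without the named genes. All 8 macrophages that lack Lyve1, Timd4, Folr2 and Cd163 carried the genes, and 10 of the 12 others had none.

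Dendritic cells with Ccl22 or Ccr7 held a lower level than the few without. Of 43 cells, 37 carried Ccl22 or Ccr7, genes of mature migrating dendritic cells, and stood at 4269 CPM (3956 to 4601). The 6 others stood at 18377 CPM (16436 to 20484), so the ratio was 0.232 (0.203 to 0.266). Of the 326 UMIs in the 6 cells, 253 sat in 2 cells and 1 cell had none. The 2 cells carried Xcr1, a marker of type 1 dendritic cells, and the cell with none carried Fscn1, another mature marker. Others of the 6 carried Siglech, a marker of plasmacytoid dendritic cells. Subtype and maturation thus cannot be told apart in this contrast. The 9 dendritic cells with Siglech, some with Ccl22 or Ccr7, stood at 4312 CPM. Without the 2 highest of the 6 cells the other 4 stood at 9035 CPM (7082 to 11360) and the ratio was 0.473 (0.371 to 0.610). That trims 1 side only. With the 3 highest cells with Ccl22 or Ccr7 also left out, the 34 remaining stood at 2833 CPM (2572 to 3112). The ratio was then 0.314 (0.244 to 0.407). H2-Ab1 was 0.0974 times as high in the cells with Ccl22 or Ccr7 (0.0638 to 0.148), whereas H2-Eb1 was 0.309 times as high (0.231 to 0.418). For every 100 Cd74 UMIs, H2-Ab1 reached 15.1 (10.7 to 20.6) with Ccl22 or Ccr7 and 46.8 (32.9 to 65.8) without, and H2-Eb1 59.9 and 58.7. Ciita had 0 UMIs in the 37 cells and 5 in the 6 others. H2-DMb1 had 2 against 6 UMIs, and these 6 sat in the same 2 highest cells. Those 2 cells also held 23 and 17 of the 51 H2-Ab1 UMIs of the 6 cells. The H2-Ab1 ratio was not computed without them. The cells with Ccl22 or Ccr7 were not uniform, as 3 of them, with 112, 85 and 56 UMIs of the 9 genes, were among the 5 highest dendritic cells. The 9 cells with Xcr1 or Clec9a, markers of type 1 dendritic cells, stood at 8347 CPM, with 10 to 134 UMIs each, against 4628 CPM in the 34 others. The same 2 highest cells were among these 9 and held all 5 Ciita UMIs of the class. Without them the other 7 cells stood at 4082 CPM (3483 to 4755), a ratio of 0.882 (0.738 to 1.05). The 34 others kept their highest cells, those with 112, 85 and 56 UMIs. Only 1 side was thus trimmed, which lowers this ratio, and no conclusion on the difference is drawn from it.

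Mesothelial cells carried the 9 genes at a level 8.91 times that of fibroblasts (8.28 to 9.60) and 10.8 times that of endothelial cells (9.0 to 13.0). A share of 18.8% of the 528 cells (15.5 to 22.3) held 5 or more UMIs of the 9 genes and 7.58% (5.47 to 10.2) held 10 or more, against 0.733% (0.152 to 2.13) and 0.489% of red blood cells. The highest cell held 96. Without the 10 highest cells the level was 410 CPM (387 to 434), and in that remainder Cd74 stood at 132 CPM, H2-Eb1 at 95.3, H2-Aa at 74.3, H2-Ab1 at 70.9, H2-DMb1 at 18.2 and H2-DMa at 16.2.

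Leukocyte markers were low in mesothelial cells, and some of them, with some fibroblast markers, were higher in the cells with more UMIs of the 9 genes. Ptprc, the pan-leukocyte gene CD45, was found in 16 of the 528 cells, and the 512 cells without it stood at 532 CPM (506 to 559). In the 370 mesothelial cells with no UMI of Ptprc, of the B and T cell marker lists or of C1qa, C1qb, C1qc, Adgre1, Csf1r, Flt3, Lyz2, Tyrobp and Fcer1g, the level was 512 CPM (479 to 548), with 864 UMIs. The 158 cells with 3 or more UMIs of the 9 genes were compared with the 221 with none. Ptprc had 14 UMIs in the former and 3 in the latter. B cell markers as a list of 7 stood at 25.8 against 6.26 CPM, of which Bank1 gave 17 of 31 and 2 of 6 UMIs. Macrophage markers as a list of 9 stood at 47.5 against 59.5 CPM, with Adgre1, C1qc, Ms4a7 and Fcgr1 at 0 in both. Dendritic cell markers as a list of 10 stood at 141 against 104 CPM, with Xcr1, Clec9a, Cd209a, Ccl17 and Siglech at 0 in both and Zbtb46, Fscn1 and Cacnb3 making up nearly all. In the same comparison the 8 mesothelial markers summed to 3801 against 5986 CPM, and Muc16 and Msln, surface proteins of the mesothelium, were 0.256 (0.208 to 0.313) and 0.400 (0.351 to 0.455) times as high. Of 7 fibroblast markers, 4 had intervals above 1, Col1a1 (1.07), Col1a2 (1.13), Col3a1 (1.05) and Dcn (1.25), and Lum was 0.545 times as high (0.442 to 0.670). Among the enzymes, Lgmn was 2.31 times as high (1.59 to 3.42) and Ctss had 9 UMIs against none. The part of mixed droplets in these differences was not tested. The cells were chosen by their UMIs of the 9 genes, so the ratios are a description.

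Class I genes were compared in the same 158 and 221 cells. B2m, the light chain of class I, was 1.34 times as high in the 158 cells (1.15 to 1.56), H2-K1 1.16 times (1.00 to 1.35) and the immunoproteasome gene Psmb8 2.11 times (1.31 to 3.49). For 3 of the 8 class I genes and none of the 13 regulators the interval lay above 1. The share of all genes with such an interval was not computed. These counts, and that of the fibroblast markers, are therefore not read as a result about the lists. Median depth was 5351.5 UMIs in the 158 cells and 3334 in the 221. Irf1, an interferon-responsive transcription factor, was 1.31 times as high (0.898 to 1.92).

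**Figure D5:**
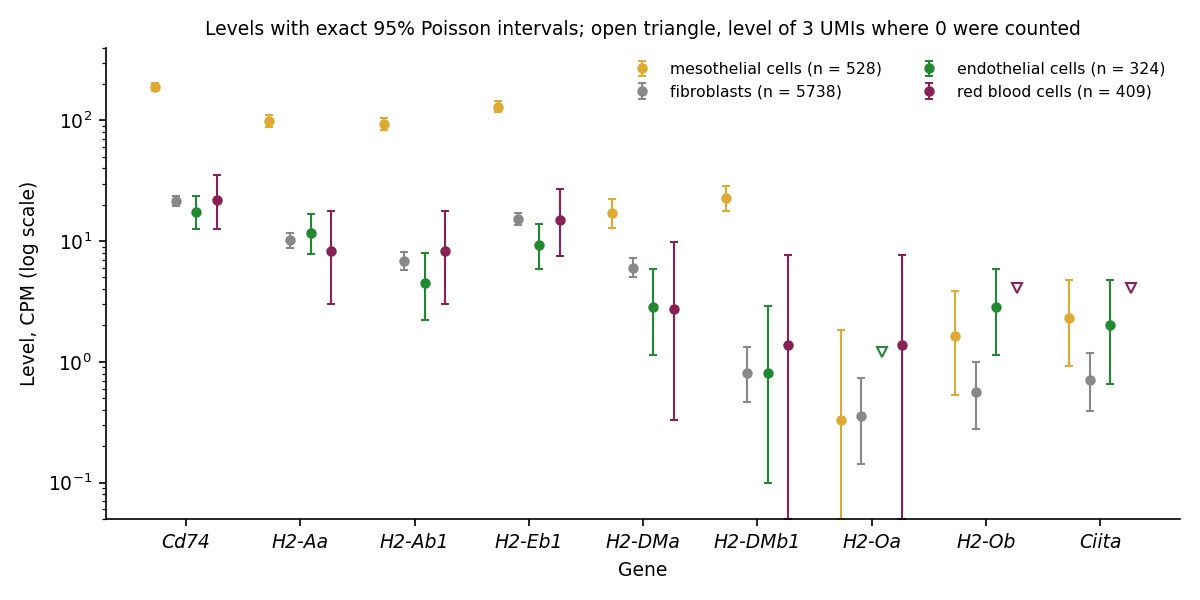
Level of each of the 9 genes (CPM, log scale) in mesothelial cells, fibroblasts, endothelial cells and red blood cells, with exact 95% Poisson intervals; open triangles mark the level of 3 UMIs where none was counted. Mesothelial cells lay above the other 3 classes for Cd74, H2-Aa, H2-Ab1, H2-Eb1, H2-DMa and H2-DMb1 and not for H2-Oa, H2-Ob or Ciita.

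In T cells most UMIs of the 9 genes came from few cells. The 10 highest of 883 T cells held 509 of 728 UMIs (69.9%), with 15 to 123 each. All 10 carried Ptprc, as did 765 of the other 873 T cells. A macrophage marker was found in 5 of the 10 and 5 of the 873, and a B cell marker in 4 and 48. At least 2 dendritic cell markers were found in 3 of the 10 and 2 of the 873. The part of mixed droplets was not tested. The other 873 cells stood at 105 CPM (91.8 to 120). The genes were divided unequally between the 10 cells and the rest. The 10 cells held 86.6% of H2-Eb1, 84.8% of H2-Aa, 70.6% of Cd74 and all 7 H2-DMb1 UMIs. H2-DMa had 39 of its 47 UMIs in the rest, in 39 different cells, H2-Oa 24 of 26 in 23 cells and H2-Ob all 19 in 19 cells. In the rest H2-DMa stood at 18.7 CPM (13.3 to 25.6), against 2.74 CPM (0.331 to 9.88) in red blood cells, and H2-Ob at 9.13 CPM (5.50 to 14.3), against none in red blood cells, where 3 UMIs would be 4.10 CPM.

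Fibroblasts and endothelial cells held the genes at levels close to background. Without the 10 highest cells of each class, fibroblasts stood at 4.39 times (2.12 to 10.9) and endothelial cells at 2.25 times (1.02 to 5.88) the level of red blood cells. Those 10 cells held 83.7% of the UMIs in 409 red blood cells, 59.1% in 324 endothelial cells and 30.3% in 5738 fibroblasts. The background was thus trimmed most, which raises both ratios, and no order against background is drawn from them. Among cells without a leukocyte marker the ratios were 1.49 (0.864 to 2.82) and 1.71 (0.921 to 3.43), so whether these classes exceeded background depended on the cells left out. The 10 highest of 5738 fibroblasts held 30.3% of the UMIs, with Ptprc in 6 and B cell markers in 7 of them, and the other fibroblasts stood at 43.5 CPM. In the 5056 fibroblasts without a leukocyte marker the level was 30.6 CPM (28.0 to 33.4), below the whole class. Of 119 H2-DMa UMIs in fibroblasts, 117 lay outside the 10 highest cells, in 114 cells. Their level of 5.96 CPM (4.93 to 7.14) lay within the red blood cell interval for H2-DMa (0.331 to 9.88). Outside the 10 highest fibroblasts H2-Ob had 10 of 11 UMIs, and Cd74 had 268 of 423, in 163 cells. Endothelial cells without their 10 highest cells stood at 22.3 CPM (16.7 to 29.3), and 7 of those 10 carried Ptprc or a B cell marker. Ptprc and B cell markers thus moved with the highest cells in these classes, and their part in the levels was not tested.

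The other genes of the pathway were read from fixed lists. Of 7 processing enzymes, 4 were highest in macrophages, Ctss, Ctsb, Ctsd and Lgmn, 2 in dendritic cells, Ctsh and Ifi30, and Ctsl in fibroblasts. Ctss, the protease that cuts the invariant chain in myeloid and B cells, stood at 527 CPM in macrophages, 342 in dendritic cells and 269 in B cells, and at 3.28 in mesothelial cells. Ctsl stood at 733 CPM in mesothelial cells and 820 in fibroblasts. Between mesothelial cells and fibroblasts, none of the 7 enzymes and none of the 13 regulators was called 4-fold higher. Of the 8 class I genes 1 was, H2-K1. The share over all genes was 1.8% of 15923, so counts this small are not read as a result about the lists. Ifi30, the lysosomal thiol reductase, stood at 577 CPM in dendritic cells, 424 in B cells and 64.1 in mesothelial cells.

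Of 13 regulators, 3 were called higher in B cells than in T cells, namely Spi1, Irf4 and Irf8, against 1.99% of 10954 genes. Rfx5 stood at 18.8 CPM in B cells, 15.1 in mesothelial cells and 7.92 in fibroblasts. Spi1, the factor PU.1 of myeloid and B cells, stood at 269 CPM in macrophages, 174 in dendritic cells, 84.5 in B cells and 1.31 in mesothelial cells. Irf8 stood at 863 CPM in dendritic cells and 186 in B cells. Ifngr1, a receptor chain for interferon gamma, stood at 316 CPM in macrophages and 43.7 in mesothelial cells. All 8 class I genes were highest in dendritic cells, with B2m at 4400 CPM and H2-K1 at 3200 CPM. In mesothelial cells B2m stood at 337 CPM and H2-K1 at 348 CPM. March1, the ligase that removes class II from the surface, stood at 296 CPM in B cells, 93.7 in macrophages and 61.7 in dendritic cells. Of the 4 costimulation genes, Cd86 stood at 325 CPM in dendritic cells, 293 in macrophages and 289 in B cells, and at 1.31 in mesothelial cells, and Cd40 and Icosl were highest in dendritic cells. H2-Eb2 stood at 106 CPM in B cells and 33.6 in dendritic cells.

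The genes whose levels across 13 classes were most like the sum of the 9 were ranked by Pearson's r of log2(CPM + 10) among 13053 genes with 100 or more UMIs. The 8 closest that are not among the 9 were Irf5 (r = 0.966), Dennd4b (0.949), Ctss (0.938), Cd83 (0.937), Ly86 (0.931), Lat2 (0.930), BC035044 (0.918) and Cd86 (0.907). The classes share 1 library and differ in depth, and the 9 genes are part of the sum. Irf5, a transcription factor of myeloid and B cells, stood at 82.0 CPM in macrophages, 59.4 in B cells, 50.4 in dendritic cells and 14.5 in mesothelial cells, against 2.08 in fibroblasts. Of the 9 genes themselves, Cd74 (r = 0.998), H2-Aa, H2-Eb1 and H2-Ab1 held the first 4 places, whereas H2-Ob (0.723) and H2-Oa (0.687) came at places 177 and 271.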

How the data were processed

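The table held 1 single-cell library of Scap f/f pancreas. The authors aligned the reads to mm10 with Cell Ranger 7.1.0, by the methods of the study, and deposited raw counts of UMIs. The smallest barcode held 500 UMIs and the largest 174899. Barcodes with over 800 and under 100000 UMIs and under 15% mitochondrial UMIs were retained. A class needed 3 different markers making up 0.1% of a cell's UMIs (fibroblasts 4 and 1%, acinar cells 4 and 5%, red blood cells 3 and 2%, Schwann cells 2 and 0.1%), mesothelial came before fibroblast and endothelial before mural, and cells in several gates were left out. Monocytes, natural killer and innate lymphoid cells were not gated, and classes under 15 cells were not used. The gate thresholds were set after the files were seen. No doublet caller was applied in the values given.

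UMIs were summed per class and scaled to 1000000 (CPM), with exact Poisson intervals. Shares have Clopper-Pearson intervals and ratios exact conditional intervals, computed with scipy 1.17.1, numpy 2.4.6 and pandas 2.3.3 (Python 3.11.15). A fold needed 10 UMIs in both classes together. The functions were tested on simulated data. With 1 library no test was possible. The genes named are the 9, whole pathway lists and the 8 genes most alike, and leading genes and the genes of overlapping loci were added after their values were seen. The 9 genes and the lists were chosen with earlier results of these data known. Alternatives were UMI and mitochondrial limits, a stricter gate, Scrublet (scanpy 1.11.5), subtraction of free RNA, weighting of cells, thinning, the pseudocount and the low count filter.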

Additional observations from a re-analysis of the deposited data

Results flagged for a closer look

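Cells that no class held carried UMIs of the 9 genes well above those of red blood cells (58.8 CPM). The 505 retained cells that passed no gate stood at 2743 CPM (2649 to 2840), with 3193 UMIs, or 16.6% of the UMIs of the 9 genes. Of these UMIs, 2877 sat in 73 cells with 10 or more, and Ptprc was found in 63.0% of the 73. The leading genes of the 73 cells over the other 432, leaving out the 9 genes, were Jchain, Igkc, Retnla, Tnip3, Iglc1 and Ccl17, named after their values were seen, of which Igkc and Iglc1 encode immunoglobulin light chains. Of the 505 cells, those with at least 1 UMI of a B cell marker numbered 109 and stood at 5582 CPM. Those with 2 or more different dendritic cell markers numbered 32 and held 1233 UMIs, at 11002 CPM. For macrophage markers there were 16 such cells with 996 UMIs, at 8475 CPM. For B cell markers there were 55 with 517 UMIs, at 3852 CPM. A cell can be in more than 1 of these sets. The 1067 cells that passed several gates stood at 425 CPM (409 to 440), and the 135 of them that passed the B cell gate held 2026 of their 2926 UMIs. The 842 barcodes removed by the UMI and mitochondrial limits stood at 897 CPM (859 to 936), with 2097 UMIs. The levels given for the 7 classes describe the cells that passed 1 gate and not these cells.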

How the results depend on the processing

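With 1 library there is no replicate to leave out, so no value here has a check between animals. No paired analysis was possible because the series as used here has 1 library. Of 189 alternative values of summed levels, shares and counts, 147 stayed within the counting interval or, for counts, within 1.5 times, and 42 moved. The order of fibroblasts and endothelial cells turned in the mean over cells and among cells without a leukocyte marker. With an upper limit of 10000 UMIs the level was 9537 CPM in B cells, 8179 in macrophages, 6122 in dendritic cells, 64.0 in endothelial cells and 66.8 in fibroblasts, and the endothelial share was 11.2%. With a lower limit of 1500 UMIs it was 7776 CPM in B cells and 376 in T cells, and shares were 100% in dendritic cells, 17.8% in T cells and 10.9% in fibroblasts. With 1 more marker it was 4286 CPM in dendritic cells, 393 in T cells and 74.1 in fibroblasts, and the B cell share was 98.9%. Without cells marked by Scrublet fibroblasts stood at 54.0 CPM. Averaged over cells, it was 10475 CPM in B cells, 7951 in macrophages, 6450 in dendritic cells, 255 in T cells, 81.5 in endothelial cells and 617 in mesothelial cells. Thinning moved the shares to 94.9% in B cells, 6.80% in T cells, 3.09% in endothelial cells, 27.3% in mesothelial cells and 3.05% in fibroblasts. Subtracting the level of red blood and acinar cells (142 CPM) left 196 CPM in T cells, 413 in mesothelial cells and 0 in endothelial cells and fibroblasts. Against macrophages, dendritic cells had 1 gene called higher without the low count filter (H2-Oa) and 1 called lower with a pseudocount of 1 CPM (H2-DMa).

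Further alternatives, the removal of the highest dendritic cells and of cells with leukocyte markers included, were chosen after seeing the data. Taking the free RNA level from red blood and acinar cells with fewer than 5 UMIs of the 9 genes (35 CPM) left 303 CPM in T cells, 520 in mesothelial cells, 16.5 in endothelial cells and 27.3 in fibroblasts. Without the 10 highest cells, 105 CPM remained in T cells, 410 in mesothelial cells, 22.3 in endothelial cells and 43.5 in fibroblasts, and without Ptprc-positive cells fibroblasts also stood at 43.5. The cause of these shifts was not tested, apart from fewer cells or UMIs by construction.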
